A study of Homo sapiens with 4 samples.

Results

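Ligand-gated ion channels for neurotransmitters were examined in SK-N-BE(2), a human neuroblastoma (NB) cell line with MYCN amplification. The genes were chosen by symbol: protein-coding genes that start with GRIA, GRID, GRIK, GRIN1, GRIN2, GRIN3, GABR, CHRN, GLRA, GLRB, HTR3 or P2RX. Of 60671 gene IDs in the table, 72 met this rule, and they comprised 19 ionotropic glutamate, 24 GABA-A and glycine, 21 nicotinic and 5-HT3, and 8 P2X receptor genes. Symbols that began alike but belonged to antisense RNAs or pseudogenes (6 IDs) were left out. GRID2IP, which encodes a protein that binds a delta glutamate receptor, and the read-through gene P2RX5-TAX1BP3 entered through the prefix alone.

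The control group (shNC) carried a non-targeting short hairpin RNA, and the knockdown group (shMETTL14) carried a hairpin against METTL14, which encodes a subunit of the enzyme complex that writes N6-methyladenosine (m6A) on RNA. The cells of both groups were SK-N-BE(2), and they shared the delivery by lentivirus in the pLKO.1 vector and the selection with puromycin. Each group had 2 RNA-seq libraries. The labels name neither the hairpin used nor separate cultures, so p-values measure the spread between these libraries, which may be technical.

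These receptors are assembled from several subunits around a pore that opens when the transmitter binds. Glutamate channels are tetramers that pass cations and carry most fast excitation in the brain. GABA-A and glycine receptors are pentamers that pass chloride, while nicotinic acetylcholine and 5-HT3 (serotonin) receptors are pentamers of the same superfamily that pass cations. P2X receptors are trimers gated by extracellular ATP. NB derives from the sympathetic lineage of the neural crest, and the ganglion cells of this lineage receive fast input through nicotinic receptors that contain the subunits encoded by CHRNA3 and CHRNB4.

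The depth was between 18925786 and 19886214 counts assigned to genes per library. METTL14 had 753 and 754 counts in the shNC libraries and 303 and 321 counts in the shMETTL14 libraries, a log2 fold change of -1.26 (SE 0.0832, edgeR adjusted p = 3.64e-11). Genes of the noradrenergic NB identity were detected in every library, and 11 of 11 passed the filter on low counts. Their summed level was 5329 and 5259 CPM (counts scaled to a common library total) in shNC and 5464 and 5528 CPM in shMETTL14, with 2 genes called higher and 7 lower. MYCN made up much of this sum and was called higher. Without MYCN the other 10 genes summed to 2692 and 2663 CPM in shNC and to 2311 and 2335 CPM in shMETTL14. Markers of Schwann cells or glia summed to 6.37 and 5.95 CPM in shNC and to 4.24 and 5.14 CPM in shMETTL14, and 1 of 3 tested genes, S100B, was called lower, while SOX10, which defines Schwann cells, had 0 counts throughout. Endothelial markers summed to 2.46 and 1.78 CPM in shNC and to 0.766 and 1.51 CPM in shMETTL14, and VWF, the 1 gene tested, was called lower. Immune markers summed to 1.87 to 2.61 CPM over all libraries, and the 1 gene tested, PTPRC, was not called. Fibroblast or mesenchymal markers summed to 438 and 440 CPM in shNC and to 413 and 422 CPM in shMETTL14, with 1 of 6 tested genes higher and 3 lower. Whether these shifts had a part in the receptor results was not tested.

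Of the 72 receptor genes, 26 passed the filter on low counts and were tested. At an edgeR adjusted p below 0.05, 17 of these 26 were called different between the groups (65.4%), with 11 higher and 6 lower in shMETTL14 cells. Calls were common in this comparison: 52.5% of all 16309 genes tested were called (58.5% of the protein-coding genes), with 27.2% higher and 25.3% lower. A call together with a change of at least 2-fold was made for 8 receptor genes, against 8.79% of all genes tested. Of these, 5 were higher (GRIK3, GABRA4, GABRB1, GABRG3 and HTR3A; background 2.80%) and 3 were lower (GRIN2D, GABRE and P2RX7; background 5.99%). The values of the 2 groups did not overlap for 23 of the 26 genes, as for 75.5% of all genes tested. The median log2 fold change of the 26 genes was 0.05 and their median absolute value was 0.57, beside -0.00095 and 0.30 for all genes tested. By class the absolute value ran from 0.28 for nicotinic and 5-HT3 genes to 1.47 for GABA-A genes, none of which exceeded 57 counts in a library. Only GRIN2D had a group in which no library reached 10 counts, the minimum of the filter, so that it had to differ to be tested. GABRB1, GABRE and CHRNA10 reached 10 counts in both libraries only of the group where they were higher. Their lower groups had 9 and 11 (shNC), 12 and 9 (shMETTL14) and 14 and 8 counts (shNC). The filter thus favoured a difference in these genes. With at least 10 counts required in every library, 22 receptor genes were tested. A call with at least 2-fold change was then made for 5, with 4 higher and 1 lower. Bulk RNA cannot tell a smaller number of cells that express a gene from less RNA of that gene per cell.

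**Figure D1:**
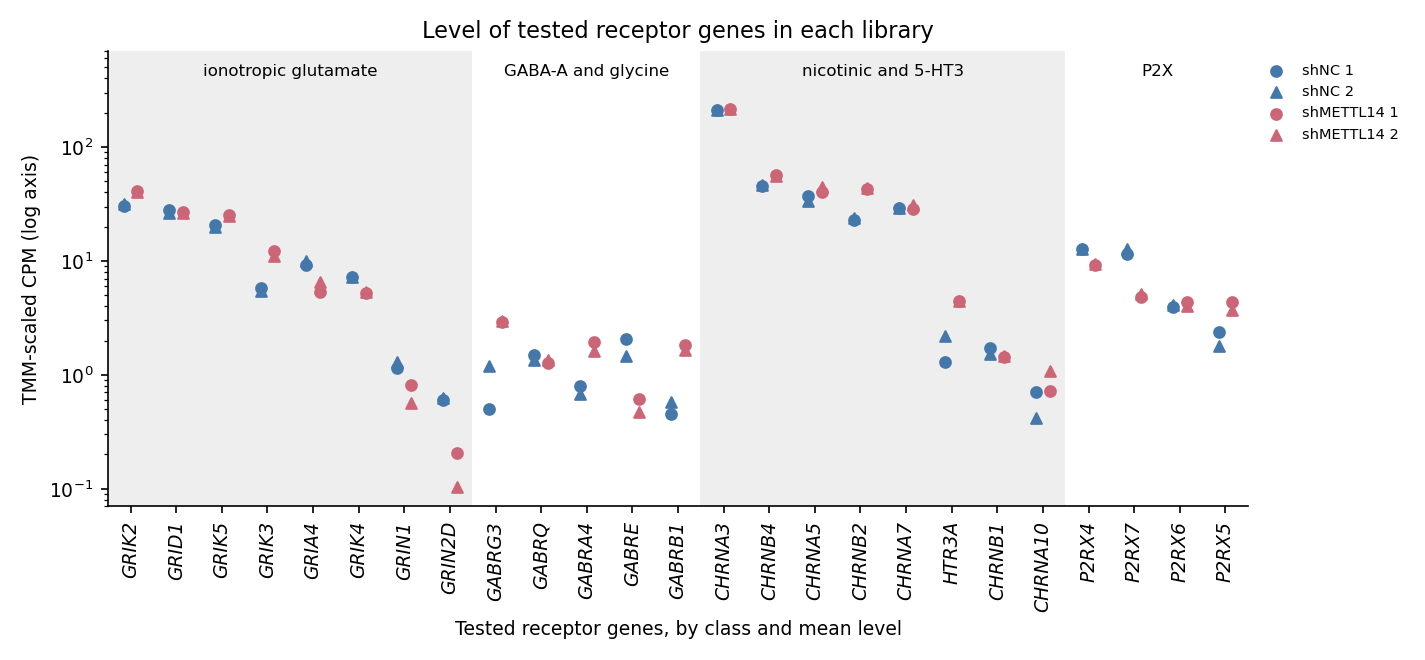
Level of 25 of the 26 tested receptor genes in each library, in TMM-scaled CPM on a log axis, grouped by receptor class (circles, library 1; triangles, library 2; blue, shNC; red, shMETTL14). CHRNA3 stands near 212 to 217 CPM in all 4 libraries, and the 2 shMETTL14 points stand clear above the shNC points for GRIK3, CHRNB2 and HTR3A and clear below them for P2RX7. CPM are not divided by gene length, so heights compare libraries rather than genes.

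**Figure D2:**
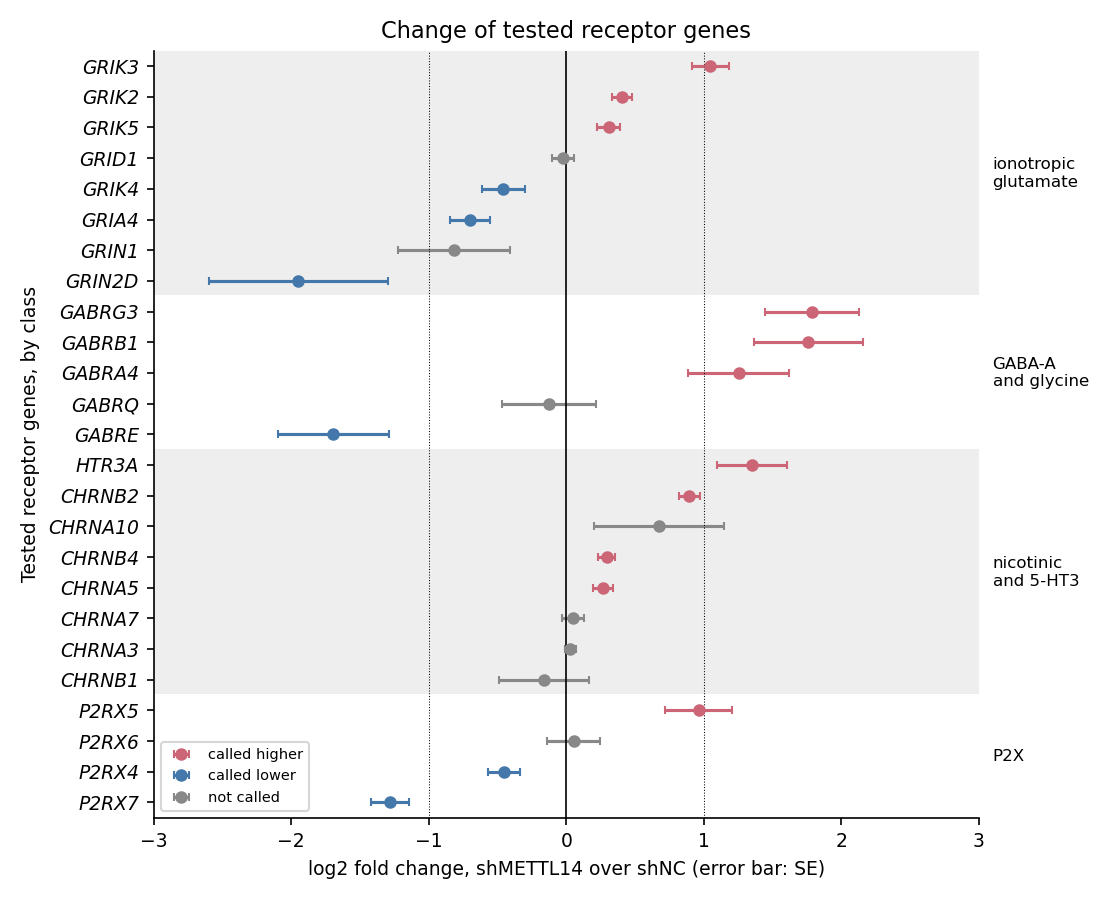
Log2 fold change of shMETTL14 over shNC for 25 of the 26 tested receptor genes, by class, with the standard error of the edgeR fit as error bars and dotted lines at a 2-fold change. Glutamate and P2X genes lie on both sides of 0, and the called nicotinic and 5-HT3 genes all lie to the right of it.

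The receptor genes expressed in these cells were led by nicotinic subunits. To compare genes, levels were divided by exon length (CPM per kilobase of exon). On this scale, CHRNA3 alone made up 48.0% and 48.3% of the summed level of all receptor genes in shNC and 44.5% and 43.8% in shMETTL14. CHRNA5 followed with 9.72 ± 0.683 CPM per kilobase in shNC and 11.7 ± 0.877 in shMETTL14 (SD, n = 2), and CHRNB4 with 9.15 ± 0.136 and 11.2 ± 0.200. These neighbours in the order did not differ beyond their spread within either group. The order also depends on the length used, because exon length joined all annotated exons of a gene. It was 4976 bases for CHRNB4, whose longest coding transcript has 2623, and 20978 for CHRNA7, whose longest has 6181. For CHRNA5 both lengths were 3623 bases. Nicotinic and 5-HT3 genes together held 76.3% and 76.0% of this sum in shNC and 77.3% and 77.8% in shMETTL14, and ionotropic glutamate genes held between 16.9% and 17.3% in all 4 libraries. The P2X share was 5.49% and 5.80% in shNC and 3.88% and 3.78% in shMETTL14, while the GABA-A and glycine share was 1.11% and 1.27% against 1.54% and 1.49%. The shares of the groups did not overlap for the nicotinic and 5-HT3, P2X, and GABA-A and glycine classes. The shares add up to 100% in each library, so these differences are not independent of each other. Without the division by length, all receptor genes summed to 494.0 and 493.7 CPM in shNC and to 545.3 and 547.6 CPM in shMETTL14.

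**Figure D3:**
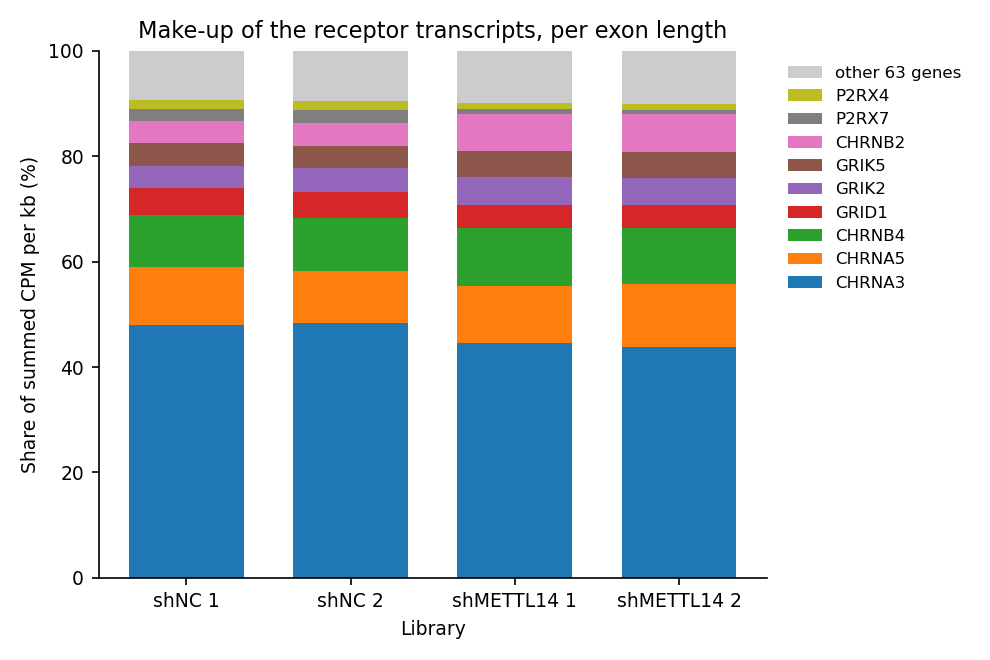
Share of the 9 receptor genes with the highest per-length level in shNC, with the other 63 combined, in the summed per-length level (CPM per kilobase of exon) of all receptor genes, in percent, one bar per library. CHRNA3 fills 43.8% to 48.3% of each bar, CHRNB2 widens from 4.19% and 4.37% in shNC to 7.05% and 7.23% in shMETTL14, and P2RX7 narrows from 2.24% and 2.47% to 0.844% and 0.890%.

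Among ionotropic glutamate receptor genes, 8 of 19 were tested, with 3 higher, 3 lower and 2 not called. The changes followed receptor families only in part: 3 kainate receptor genes rose and 1 fell, and the single tested AMPA receptor gene fell. The NMDA receptor gene that fell, GRIN2D, passed the filter only through the shNC group, so its fall is no support for a pattern by family. GRIK3 (chr1:36795527-37034129), a kainate subunit that can form channels on its own, had 116 and 104 counts in shNC and 238 and 214 in shMETTL14. Its level went from 5.63 ± 0.275 to 11.6 ± 0.733 CPM (SD, n = 2), a log2 fold change of 1.05 (SE 0.135, edgeR adjusted p = 1.05e-06). Both knockdown libraries lay far above both controls. GRIK2 (chr6:101181257-102070083), another pore-forming kainate subunit, had 599 and 610 counts in shNC and 811 and 778 in shMETTL14. GRIK2 rose by 0.40 on the log2 scale (SE 0.0724, edgeR adjusted p = 7.11e-05). GRIK5, a kainate subunit that needs a partner such as the GRIK2 product to form a channel, rose by 0.31 (408 and 377 against 492 and 474 counts, SE 0.0851, edgeR adjusted p = 0.00424). GRIK4, the other subunit of that partner-dependent kind, went the opposite way: 145 and 137 counts in shNC and 102 in each shMETTL14 library, a log2 fold change of -0.46 (SE 0.155, edgeR adjusted p = 0.0172). The groups did not overlap for any of these 4 kainate genes, as for 75.5% of all genes tested. With DESeq2 the calls of GRIK4 and GRIK5 were lost (DESeq2 adjusted p = 0.123 and 0.0530), and GRIK4 was also lost without shNC library 1 or shMETTL14 library 1.

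Of the AMPA receptor genes, which carry fast excitatory currents, GRIA4 (chr11:105609994-105982092) was the one tested. It had 183 and 193 counts in shNC and 104 and 126 in shMETTL14, so that it fell by 0.70 on the log2 scale (SE 0.146, edgeR adjusted p = 0.000368). The others were scarce: GRIA2, whose subunit makes AMPA channels impermeable to calcium, had 10 and 5 counts against 1 and 2, GRIA3 had 15 and 9 against 7 and 7, and GRIA1 had at most 2. NMDA receptors need the GRIN1 subunit. GRIN1 (chr9:137138390-137168762) had 23 and 25 counts in shNC and 16 and 11 in shMETTL14, and its log2 fold change of -0.82 (SE 0.408) was not called (edgeR adjusted p = 0.0985, or 0.0485 when only genes with at least 10 counts in every library were tested). The exons of GRIN1 overlap those of LRRC26 on the opposite strand. GRIN2D, a glutamate-binding NMDA subunit, had 12 counts in each shNC library and 4 and 2 in shMETTL14. It passed the filter only through the shNC group, so that it had to differ to be tested. GRIN2D fell by 1.95 on the log2 scale (SE 0.648, edgeR adjusted p = 0.0153), at counts so low that the call was lost without any one of the 4 libraries (edgeR adjusted p between 0.0712 and 0.216) and with DESeq2 (adjusted p = 0.122). GRIN2A, GRIN2B, GRIN2C, GRIN3A and GRIN3B had at most 2 counts in a library. GRID1, a delta receptor subunit that binds synaptic organizers of the cerebellin family, had 553 and 507 counts in shNC and 530 and 507 in shMETTL14. The groups overlapped for GRID1, and its fitted change was -0.02 on the log2 scale (SE 0.0797, edgeR adjusted p = 0.838).

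The GRIK3 promoter is shown because this gene had the largest rise among glutamate receptor genes. The window of 300 bases spans the gene start that RefSeq gives at base 37034515, which lies 386 bases upstream of the GENCODE start above (GRCh38.p14, chr1:37034466-37034765, minus strand). Capitals mark GC boxes (GGGCGG on either strand), the short element that Sp1-type factors are known to bind.
GRIK3: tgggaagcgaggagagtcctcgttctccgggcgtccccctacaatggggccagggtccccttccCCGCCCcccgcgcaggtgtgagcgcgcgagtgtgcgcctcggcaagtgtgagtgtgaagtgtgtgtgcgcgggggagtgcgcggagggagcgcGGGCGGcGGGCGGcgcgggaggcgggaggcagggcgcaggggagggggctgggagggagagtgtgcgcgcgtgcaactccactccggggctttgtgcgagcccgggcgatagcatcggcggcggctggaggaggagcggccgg
The window held 3 GC boxes and 37 CpG dinucleotides. Among all 35116 promoter windows of this length, 45.0% held a GC box and the median number of CpG dinucleotides was 14.

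Of the GABA-A and glycine receptor genes, 6 of 24 were tested, all of them GABA-A subunits, and none of the 6 exceeded 57 counts in a library. Among them 3 rose, 1 fell and 2 were not called. GABRG3 (chr15:26971282-27541991), a gamma subunit, had 10 and 23 counts in shNC and 57 in each shMETTL14 library. On the log2 scale it rose by 1.79 (SE 0.344, edgeR adjusted p = 0.000156), and its level rose from 0.851 ± 0.495 to 2.94 ± 0.0357 CPM (SD, n = 2). The control libraries differed widely, and the log2 fold change was 1.28 without shNC library 1 and 2.54 without shNC library 2, called in both cases. GABRB1 (chr4:46993723-47426444), a beta subunit, had 9 and 11 counts in shNC and 36 and 32 in shMETTL14, a log2 fold change of 1.76 (SE 0.399, edgeR adjusted p = 0.000808). GABRA4 (chr4:46918900-46994407), an alpha subunit found in receptors outside synapses, had 16 and 13 counts in shNC and 38 and 31 in shMETTL14. GABRA4 rose by 1.25 on the log2 scale (SE 0.370, edgeR adjusted p = 0.00711). For these 3 genes every knockdown library lay above both controls, where 75.5% of all genes tested had groups that did not overlap. The 2 chromosome 4 genes start head to head on opposite strands and their exons overlap, so a read from the shared stretch could not be assigned to one of them without strand. The call for GABRA4 was lost without shNC library 2 and without shMETTL14 library 1 (edgeR adjusted p = 0.0524 and 0.0718) and with DESeq2 (adjusted p = 0.0580).

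The GABRA4 promoter is shown because the window reaches into the neighbouring gene that rose with it (RefSeq, GRCh38.p14, chr4:46993532-46993831, minus strand). Capitals mark the 109 bases that lie inside annotated GABRB1.
GABRA4: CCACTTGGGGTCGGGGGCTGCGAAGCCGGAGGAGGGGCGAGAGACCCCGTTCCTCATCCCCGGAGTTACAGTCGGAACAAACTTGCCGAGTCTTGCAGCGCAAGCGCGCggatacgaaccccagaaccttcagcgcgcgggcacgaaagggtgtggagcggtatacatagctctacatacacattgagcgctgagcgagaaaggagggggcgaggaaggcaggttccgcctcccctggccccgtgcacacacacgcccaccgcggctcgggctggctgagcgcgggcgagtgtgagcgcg
This stretch held 32 CpG dinucleotides and 0 GC boxes. It spans the RefSeq gene start but lies wholly downstream of the GENCODE start of GABRA4, base 46994407.

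GABRE (chrX:151953124-151974680), the epsilon subunit gene and host of MIR224 and MIR452, moved the other way. It had 41 and 28 counts in shNC and 12 and 9 in shMETTL14, which gave a log2 fold change of -1.69 (SE 0.404, edgeR adjusted p = 0.0013). Both knockdown libraries were below both controls. GABRQ, the theta subunit, had 30 and 26 against 25 and 26 counts and was not called (log2 fold change -0.12, SE 0.342, edgeR adjusted p = 0.785). Of the 18 genes not tested, 16 had 3 counts or fewer in every library. This held for all 5 glycine receptor genes, of which GLRB had a single count in 1 library, GLRA2 a single count in another, and GLRA1, GLRA3 and GLRA4 none. At this depth a count of 0 allows up to 3 counts, or 0.151 to 0.157 CPM depending on the library. GABRR2, a rho subunit, had 4 and 11 counts in shNC and 4 and 7 in shMETTL14.

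Among the nicotinic and 5-HT3 receptor genes, 8 of 21 were tested, with 4 higher, 0 lower and 4 not called. The called share was 50%, beside 52.5% of all genes tested (27.2% higher and 25.3% lower). Also at an unadjusted p under 0.05 and with DESeq2, 0 were lower. When genes of any count were tested, 1 gene, CHRNE, was called lower. The receptor gene with the highest level per exon length did not pass the test. CHRNA3 (chr15:78593052-78621295), the alpha subunit of the ganglionic receptor, had 4218 and 4061 counts in shNC and 4258 and 4139 in shMETTL14. The fitted change was 0.03 on the log2 scale (SE 0.0398, edgeR adjusted p = 0.556), and this value turned negative under upper quartile scaling (-0.038) and with library size alone (-0.015). CHRNB4 (chr15:78624119-78727754), its usual beta partner, had 898 and 881 counts in shNC and 1107 and 1061 in shMETTL14. CHRNB4 rose by 0.29 on the log2 scale (SE 0.0600, edgeR adjusted p = 0.000284). CHRNA5 (chr15:78565520-78595269), an accessory alpha subunit that joins receptors built on another alpha and a beta subunit, had 737 and 641 counts in shNC and 787 and 860 in shMETTL14. This gave a log2 fold change of 0.27 (SE 0.0753, edgeR adjusted p = 0.00494), and the call was lost without shNC library 2 and without shMETTL14 library 2 (edgeR adjusted p = 0.0532 and 0.0782). The CHRNA5 and CHRNA3 genes overlap at their ends on opposite strands.

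CHRNB2 (chr1:154567781-154580026), the beta subunit of the most common nicotinic receptor of the brain, had the largest rise of the nicotinic genes. It had 455 and 454 counts in shNC and 835 and 846 in shMETTL14, a change from 23.3 ± 0.623 to 43.3 ± 0.928 CPM (SD, n = 2). This was a log2 fold change of 0.90 (SE 0.0751, edgeR adjusted p = 1.71e-09), and the groups were far apart. Its brain partner CHRNA4 had 1 count in 1 library and none in the others. HTR3A (chr11:113974881-113990313), the subunit that all 5-HT3 receptors contain, had 26 and 42 counts in shNC and 87 and 86 in shMETTL14. HTR3A rose by 1.35 on the log2 scale (SE 0.255, edgeR adjusted p = 0.000122), and every knockdown library lay above both controls. HTR3B, which joins HTR3A in mixed receptors and lies beside it on chromosome 11, was not tested and had 4 and 3 against 10 and 9 counts. CHRNA7, whose product forms receptors of 1 subunit kind, had 581 and 553 counts in shNC and 564 and 602 in shMETTL14, and the groups overlapped (log2 fold change 0.05, SE 0.0783, edgeR adjusted p = 0.620). Reads of CHRNA7 can be shared with its partial copy CHRFAM7A, which had 56 and 81 against 49 and 47 counts. CHRNB1, a muscle receptor subunit (34 and 29 against 28 and 28 counts), and CHRNA10 (14 and 8 against 14 and 21 counts, in an exon overlap with NUP98) were not called. CHRNE, the adult muscle subunit, had 11 and 5 counts in shNC and 0 and 1 in shMETTL14 and was under the filter. It was called lower when genes of any count were tested (edgeR adjusted p = 0.0226) and without shMETTL14 library 2, and its exons overlap those of C17orf107, GP1BA and MINK1 on the opposite strand.

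CHRNB2 and GRIN1 are known targets of REST, a repressor of neuronal genes that binds the RE1 element. The RE1 word searched was TTCAGCACC, then NN, then GGACA and GCGCC without a gap, on both strands and with up to 2 mismatches in its 19 defined letters. The search of coding transcripts (GENCODE 29, GRCh38) was added after the promoter windows of the tested genes were found to hold no such match. A match stood in 51 of 19684 genes (0.259%) and in 4 of the 71 receptor genes with a coding transcript. The 4 sites are shown with RE1 in capitals and 4 bases on each side. All lie in exon 1 within the 5′ UTR. The CHRNB2 site was at chr1:154567954-154567974 and the GRIN1 site at chr9:137139260-137139280, both on the plus strand of the genome and in the sense of the transcript. The GLRA1 site at chr5:151924754-151924774 and the GLRA3 site at chr4:174828936-174828956 read against their transcripts, which lie on the minus strand, and so are given here as the plus strand has them.
CHRNB2: cggcTTCAGCACCACGGACAGCGCCccac
GRIN1: ccgcTTCAGCACCGCGGACAGCGCCggcc
GLRA1: gcgtTTCAGCACCACGGAGAGCGTCcaga
GLRA3: aagcTTCAGCACCTTAGACAGCTCCccgc
The CHRNB2 and GRIN1 sites matched all 19 letters, as did 1 other gene of the 19684. The receptor genes with a site did not move alike: CHRNB2 rose, GRIN1 was not called with a negative log2 fold change, and GLRA1 and GLRA3 had no counts. REST itself had 616 and 590 counts in shNC and 298 and 253 in shMETTL14 (log2 fold change -1.12, SE 0.0914, edgeR adjusted p = 1.11e-09). Whether REST had a part in any of these values was not tested.

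Of the P2X receptor genes, 4 of 8 were tested, with 1 higher, 2 lower and 1 not called. P2RX7 (chr12:121132819-121188032), which encodes the ATP-gated channel known for pore formation and cytokine release in immune cells, had the larger of the 2 falls. It had 229 and 242 counts in shNC and 94 and 98 in shMETTL14, and its level went from 12.1 ± 0.812 to 4.95 ± 0.206 CPM (SD, n = 2). P2RX7 fell by 1.28 on the log2 scale (SE 0.138, edgeR adjusted p = 7.68e-08), with both knockdown libraries below both controls. P2RX4 (chr12:121209857-121234106), a highly calcium-permeable channel encoded next to P2RX7 on the same strand, had 252 and 245 counts in shNC and 181 and 180 in shMETTL14. P2RX4 fell by 0.45 on the log2 scale (SE 0.116, edgeR adjusted p = 0.00238). P2RX5 (chr17:3672199-3696404) rose, with 47 and 34 counts in shNC and 86 and 71 in shMETTL14 (log2 fold change 0.96, SE 0.243, edgeR adjusted p = 0.00207). The read-through gene P2RX5-TAX1BP3 shares its exons and had 5 and 3 against 2 and 6 counts. P2RX6 had 79 counts in each shNC library and 85 and 78 in shMETTL14, and the groups overlapped (log2 fold change 0.05, SE 0.191, edgeR adjusted p = 0.833). P2RX3, a channel of sensory neurons, had 1 and 9 counts in shNC and 0 and 1 in shMETTL14, P2RX1 had 2 counts in 1 library, and P2RX2 had none.

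The promoters of the P2RX7 and P2RX4 pair are shown because both genes fell by unequal amounts (RefSeq, GRCh38.p14, plus strand, chr12:121132626-121132925 and chr12:121209879-121210178). Capitals mark GC boxes on either strand.
P2RX7: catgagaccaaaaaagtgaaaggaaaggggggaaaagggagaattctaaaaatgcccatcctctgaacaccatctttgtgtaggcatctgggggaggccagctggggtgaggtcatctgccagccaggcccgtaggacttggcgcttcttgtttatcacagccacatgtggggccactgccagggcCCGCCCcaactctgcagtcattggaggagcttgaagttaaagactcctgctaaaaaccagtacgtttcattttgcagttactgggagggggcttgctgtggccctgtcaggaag
P2RX4: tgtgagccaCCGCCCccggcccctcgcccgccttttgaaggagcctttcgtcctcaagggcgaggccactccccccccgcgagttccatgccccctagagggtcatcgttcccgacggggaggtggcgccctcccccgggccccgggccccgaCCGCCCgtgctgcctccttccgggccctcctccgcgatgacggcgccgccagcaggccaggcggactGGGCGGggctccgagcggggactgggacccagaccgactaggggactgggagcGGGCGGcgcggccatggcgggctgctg
The P2RX7 window held 1 GC box and 4 CpG dinucleotides, and the P2RX4 window held 4 and 33. The RefSeq gene start fell inside each printed window. It lay downstream of the GENCODE start by 826 bases for GABRA4, 57 for P2RX7 and 272 for P2RX4. The GABRA4 and P2RX4 windows therefore lie wholly inside these genes as GENCODE draws them. Windows were found for 47 of the 72 receptor genes and for 19 of the 26 tested, which had 24 windows between them. Of these 24, 15 (62.5%) held a GC box, beside 45.0% of all windows. The E-box CACGTG, a word bound by MYC family factors, stood in 2 of the 24 (8.33%), both of them windows of CHRNA7, beside 7.26% of all windows.

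Receptor genes often lie in clusters that arose by duplication. With gaps of up to 500000 bases, 35 of the 72 genes fell into 13 clusters, and 5 clusters had at least 2 tested genes. The tested members had the same call in 2 of these: GABRA4 and GABRB1 on chromosome 4 (both higher) and P2RX7 and P2RX4 on chromosome 12 (both lower). Among all genes tested, 27.2% were higher and 25.3% lower, and whether neighbours share calls more often than other genes was not tested. The exons of GABRA4 and GABRB1 overlap, and the call of GABRA4 was lost with DESeq2. In the chromosome 15 cluster of CHRNA5, CHRNA3 and CHRNB4, the outer genes rose and CHRNA3 was not called. On chromosome X, GABRE fell, GABRQ was not called, and GABRA3 was at 3 counts or fewer.

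**Figure D4:**
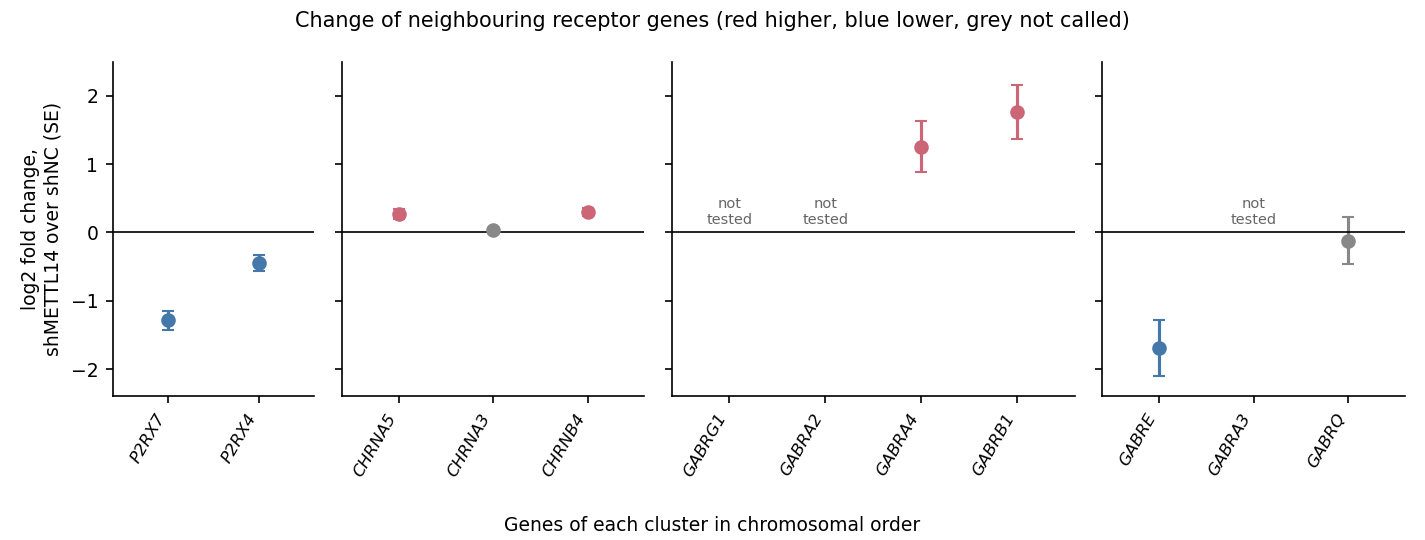
Log2 fold change of shMETTL14 over shNC (error bars, SE) for the tested genes of 4 clusters with at least 2 tested receptor genes, placed side by side in genomic order. P2RX7 and P2RX4 both lie below 0, at -1.28 and -0.45, GABRA4 and GABRB1 both lie above 0, at 1.25 and 1.76, and the other 2 clusters each hold at least 1 gene that was not called.

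GGACT is among the words that the m6A consensus allows. The density of GGACT was counted in the longest coding transcript of each gene as a description, without a test. Other words of the consensus were not counted. m6A was not measured in these libraries. The median was 0.769 words per kilobase for the 11 higher receptor genes, 1.11 for the 6 lower, 0.937 for the 9 not called and 0.969 for the 45 not tested with a transcript. The median of all genes was 0.927 words per kilobase. Single genes did not follow this order: HTR3A and GRIK5, both higher, had 3.29 and 2.58 words per kilobase, while P2RX5, also higher, had 0.

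Auxiliary subunits, chaperones and scaffolds of these receptors were followed through a list of 56 genes. Of the 43 tested, 13 were higher, 13 lower and 17 not called. The called share was 60.5%, beside 52.5% of all genes tested and 58.5% of the protein-coding genes. At least 2-fold changes were called for 1 gene that rose and 7 that fell, beside 2.80% and 5.99% of all genes tested. The median log2 fold change of the list was -0.13, beside -0.00095 for all genes tested. The largest rises were those of CBLN1, a secreted bridge between neurexins and delta receptors (log2 fold change 1.21), HOMER2, a postsynaptic scaffold (0.97), NETO2, the auxiliary subunit of kainate receptors (0.78), CACNG7, an AMPA receptor auxiliary subunit (0.67), and DLG3, a scaffold of NMDA receptors (0.62). NETO2 had 1585 and 1496 counts in shNC and 2630 and 2625 in shMETTL14 (SE 0.0455, edgeR adjusted p = 5.22e-12). The largest falls were those of the AMPA receptor scaffolds GRIP1 (-1.92) and GRIP2 (-1.57), the adhesion protein NLGN3 (-1.77), CACNG5, an AMPA receptor auxiliary subunit (-1.44), and the scaffold SHANK1 (-1.32). GRIP1 had 442 and 432 counts in shNC and 123 and 106 in shMETTL14 (SE 0.114, edgeR adjusted p = 6.85e-12). NLGN3, CACNG5 and SHANK1 had 25 counts or fewer in every library. NLGN3 and SHANK1 passed the filter only through the shNC group, where they were higher, so that they had to differ to be tested. CACNG5 had 25 and 11 counts in shNC and 11 and 2 in shMETTL14, so that only shNC had both libraries at 10 counts or more. For the nicotinic receptors, the chaperone RIC3, named here after its value was seen, was not called (log2 fold change -0.27).

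Genes that make, carry, break down or sense the same transmitters through G proteins were followed in a list of 57. Of the 22 tested, 8 were higher, 6 lower and 8 not called. The called share was 63.6%, beside 52.5% of all genes tested and 58.5% of the protein-coding genes. At least 2-fold changes were called for 3 genes that rose and 2 that fell, beside 2.80% and 5.99% of all genes tested. The list had a median log2 fold change of -0.10, beside -0.00095 for all genes tested. The largest rises were those of BCHE, a cholinesterase (1.93), the metabotropic glutamate receptor genes GRM2 (1.58) and GRM7 (1.25), the nucleotide receptor gene P2RY6 (0.77), and the muscarinic receptor gene CHRM2 (0.39). CHRM2 had 1058 and 1117 counts in shNC and 1405 and 1435 in shMETTL14 (SE 0.0574, edgeR adjusted p = 5.42e-06), whereas BCHE had only 3 and 5 against 15 and 16. BCHE and GRM2, 2 of the 3 genes that rose by at least 2-fold, passed the filter only through the shMETTL14 group, so that they too had to differ to be tested. The largest falls were those of SLC6A11, a GABA transporter (-2.34), ABAT, which breaks down GABA (-1.10), SLC1A3, a glutamate transporter (-0.82), SLC6A9, a glycine transporter (-0.81), and GRM8, a metabotropic glutamate receptor (-0.74). SLC6A11 had 101 and 79 counts in shNC and 13 and 22 in shMETTL14 (SE 0.290, edgeR adjusted p = 5.77e-07).

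Of the 46 receptor genes that were not tested, 34 had 3 counts or fewer in every library, 8 had none at all, and the highest count was 15. Together they held 0.515% to 0.945% of the counts of all receptor genes. Those that reached exactly 3 counts in a library included GABRA3, GABRA5, GABRB2 and GRIK1. CHRNA1 and CHRNA2 reached 4 counts in a single shNC library, and CHRNA9 had 8 and 5 against 5 and 9. GRID2IP had 8 and 8 against 7 and 9. No difference between the groups was detectable at this depth for CHRNA9 and GRID2IP.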

How the data were processed

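RNA of shNC and shMETTL14 SK-N-BE(2) cells was sequenced as 150-base paired ends on an Illumina NovaSeq instrument, with 2 libraries per group. The deposited table held whole-number read counts, not normalized, with 1 row per Ensembl ID. The submitters' processing notes list HISAT2 2.1.0, HTSeq 0.13.5, StringTie 1.3.6 and edgeR, and GRCh38. Which annotation release and which strand setting the counting used was not given in the sources used here. Reads of overlapping genes or near copies may therefore have been dropped or misassigned, and 28 of the 72 receptor genes overlap an exon of another gene. Lines that named no gene (19.1% to 19.9% of counts, of which ambiguous reads were 5.01% to 5.32%) were left out, and 0 other sample columns were present. Of 60671 IDs, 60401 were matched in a table of gene names. Coordinates are from GENCODE 29.

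Counts were tested across all genes with edgeR 4.0.16 in R 4.3.3 (quasi-likelihood F-test, TMM normalization, filterByExpr at 10 counts and a total of 15, group as the only term). Benjamini-Hochberg adjustment covered the 16309 genes that passed the filter, and calls were made below an adjusted p of 0.05. The standard error was the log2 fold change divided by the root of F. CPM used TMM-scaled library sizes, and per-length levels used the union of exons. An exact permutation test of 2 against 2 libraries cannot go below p = 0.333 and was not used. Steps were tested on simulated data. Alternatives were 3 other scalings, 2 other filters, DESeq2 1.42.0, a replicate block and leaving out each library.

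Every receptor gene could be named, and the 5 called genes of largest change in each direction were named from the 2 other lists. The receptor genes and lists were chosen with earlier results of these data known, so no p-value is given over a list. Values of 3 receptor genes are not reported here, although the counts of genes include them. Libraries of a group differed by more than sampling noise (mean chi-square per gene 2.80 for shNC and 2.30 for shMETTL14, against 34.1 to 35.2 between groups).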

Additional observations from a re-analysis of the deposited data

How the results depend on the processing

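All 17 receptor gene calls held under the 3 other scalings (RLE size factors, upper quartile, library size alone). Upper quartile scaling moved the median of all genes to -0.069 on the log2 scale and the share of calls that were higher from 51.8% to 41.7%. DESeq2 called 13 receptor genes, all among the 17, and 3 of the glutamate receptor genes instead of 6, losing GRIK4, GRIK5 and GRIN2D (and GABRA4 among the GABA-A receptor genes). A filter of at least 10 counts in every library left 4 GABA-A receptor genes tested, of which 2 were called, gave 5 receptor genes with at least 2-fold change instead of 8, and called GRIN1 (edgeR adjusted p = 0.0485). The median log2 fold change of the receptor genes was 0.05, but -0.016 when scaled by the upper quartile, 0.0069 by library size alone and 0.019 without a filter, so its sign depends on the scaling. Values that changed sign were never called: P2RX6 (-0.014), CHRNA3 (-0.038) and CHRNA7 (-0.018) when scaled by the upper quartile, and CHRNA3 (-0.015) when scaled by library size alone.

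Leaving out each library in turn (with the lone library assumed to vary like the others) gave 14 to 16 called receptor genes. With at least 2-fold change there were 5 to 9, the lowest without shMETTL14 library 1, and the median log2 fold change was 0.0022 to 0.048. GRID1 ranged from -0.050 to 0.0080, above 0 without shNC library 1 and without shMETTL14 library 2 (0.0061), and CHRNA7 ranged from -0.0018 (without shMETTL14 library 2) to 0.11. GRIK4 lost its call without shNC library 1 and without shMETTL14 library 1 (edgeR adjusted p = 0.0551 and 0.0599). Same-numbered libraries did not deviate together (correlation 0.00483). This shows no shared shift, but it cannot tell whether the libraries were made in pairs. The fit with the replicate number as a block called 17 receptor genes and changed no call. Beyond the named cases the cause of these shifts was not tested. Counts below about 15 limit what can be said of most untested genes.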
